A study of Homo sapiens with 2 samples.

Results

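Galectins are lectins that bind beta-galactoside sugars on glycoproteins, and 7 genes of this group were followed here: LGALS1, LGALS2, LGALS3, LGALS4, LGALS8, LGALS9 and LGALS3BP, the last encoding a secreted glycoprotein that galectins bind. Every probe set that the array annotation pairs with exactly 1 of these symbols was taken, which gave 13 of the 54675 probe sets on the array and 7 of 19775 named genes. The genes were chosen from a family in which LGALS1 was already known to differ widely between these same arrays, so their signals are a description. RNA came from PLC/PRF/5, an established human hepatocellular carcinoma line, on 2 Affymetrix U133 arrays, 1 per group. In the hepatosphere group cells grew as spheroids under cisplatin, a DNA-crosslinking platinum compound, and doxorubicin, a topoisomerase II poison. In the differentiated group fetal bovine serum was added to spheroids, which then attached. The labels do not say whether those spheroids had met the drugs, so spheroid growth, serum, attachment and possibly drug exposure differed together and cannot be told apart.

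Galectins are made in the cytosol and leave the cell without passing through the secretory pathway. Outside the cell they crosslink branched glycans on receptors, integrins and matrix proteins, and inside it they meet glycans exposed on damaged vesicles and bind signalling proteins such as RAS. Prototype galectins (LGALS1, LGALS2) pair up through their single sugar-binding domain, LGALS3 is a chimera with a long flexible tail, and the tandem-repeat galectins (LGALS4, LGALS8, LGALS9) join different sugar-binding domains by a linker. Galectin 1 and galectin 3 are often abundant in liver tumours, whereas galectin 2 and galectin 4 are known best from the gut lining.

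Values are linear MAS5 signals, and each difference is log2 signal in hepatospheres minus that in differentiated cells. With 1 array per group there was no test and no error can be given. A signal below 84.1, the higher of the median signals of the 2 arrays, was set to that floor, so a fold against it is a lower bound. Of the 7 genes, 6 reached the floor on at least 1 array. LGALS1, LGALS4 and LGALS3BP were higher by 2-fold or more in hepatospheres, whereas LGALS3 and LGALS8 were within 2-fold on their brightest probe sets. LGALS2 was lower, but only a bound of at least 1.62-fold is known, so whether it passed 2-fold was not resolved. Of all 12766 genes that reached the floor, 12.5% were at least 2-fold higher and 8.83% at least 2-fold lower. The median difference was 0.81 over the 6 galectin genes and 0.05 over all genes, a description of a set whose members were picked knowing these values.

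Both arrays had a 2% trimmed mean of 500.1, with median signals of 70.6 in differentiated cells and 84.1 in hepatospheres. All 24 poly(A) control probe sets, which report RNA spiked in during labelling, were higher on the hepatosphere array, by a median of 1.03 on the log2 scale. Scaling to those controls therefore lowers every difference measured above the floor by 1.03 and moves the median of all genes to -0.93. The 3' to 5' signal ratio of ACTB, a sign of RNA integrity, was 1.48 in differentiated cells and 2.64 in hepatospheres, and that of GAPDH was 0.987 and 1.04. All 11 hepatocyte markers, from ALB to AFP, were above the floor on both arrays, as in liver-derived cells. In hepatospheres 4 were at least 2-fold higher and 6 within 2-fold, and AFP was 5.66-fold lower. Their median difference was 0.87, and 12.5% of all genes were higher and 8.83% lower.

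Upstream sequence is shown for LGALS3BP and LGALS4, which were higher in hepatospheres, and for LGALS2, which read lower. Each run is the 250 bases before the annotated gene start, from RefSeq on GRCh38.p14, written 5′ to 3′ on the gene's strand, with every match to a searched motif in capitals.
LGALS3BP, chr17:78979924-78980173, minus strand: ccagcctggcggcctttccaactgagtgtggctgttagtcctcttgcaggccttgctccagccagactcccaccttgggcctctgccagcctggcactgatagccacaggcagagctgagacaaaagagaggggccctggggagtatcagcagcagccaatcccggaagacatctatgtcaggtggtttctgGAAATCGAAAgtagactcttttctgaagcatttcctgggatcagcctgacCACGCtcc
LGALS4, chr19:38812946-38813195, minus strand: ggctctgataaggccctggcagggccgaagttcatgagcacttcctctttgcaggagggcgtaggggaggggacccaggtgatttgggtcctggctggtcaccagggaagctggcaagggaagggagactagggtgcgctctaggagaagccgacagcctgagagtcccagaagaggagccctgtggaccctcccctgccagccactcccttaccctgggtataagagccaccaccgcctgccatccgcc
LGALS2, chr22:37580088-37580337, minus strand: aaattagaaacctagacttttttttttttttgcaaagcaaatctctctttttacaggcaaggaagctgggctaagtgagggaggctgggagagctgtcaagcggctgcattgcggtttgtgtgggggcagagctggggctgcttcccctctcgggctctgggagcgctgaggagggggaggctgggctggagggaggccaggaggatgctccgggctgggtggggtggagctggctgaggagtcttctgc

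Both strands of the upstream windows were searched for 6 motifs: GAAA and again GAAA after any 2 bases (the core of the interferon response element), ACGTG and GCGTG (cores of the hypoxia response element), GGGCGG (the GC box), TATAAA and TGANTCA (an AP-1 site). The capitals of LGALS3BP are 1 match to the doubled GAAA and 1, on the opposite strand, to GCGTG. The doubled GAAA is found in 3.02% and GCGTG in 32.2% of the 35097 windows of the same length. The windows of LGALS4 and LGALS2 held none of the 6 motifs. LGALS3, LGALS8 and LGALS9 also had windows. LGALS3 had 3 matches to GGGCGG, a motif of 42.6% of windows, in sequence of 78.8% G and C. LGALS8 has 3 annotated starts, of which 1 had 2 matches to TATAAA (10.7% of windows) and another 1 match to GGGCGG, and the LGALS9 window had none. ACGTG (18.5% of windows) and TGANTCA (6.57%) matched in no window of these genes. No entry was held for LGALS1. A match describes the letters only.

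Among the prototype galectins, LGALS1 read 780.1 in the differentiated and 21243 in the hepatosphere culture on its only probe set, 201105_at. Galectin 1 is a secreted dimer that binds integrins and matrix and can trigger death of activated T cells. The hepatosphere signal was 27.2-fold higher, a difference of 4.77, which ranked 9th from the top among 11063 genes above the floor on both arrays. The direction held under every processing choice tried, with differences between 3.74 with poly(A) scaling and 4.83 with loess. The height of the floor and the choice of probe sets could not change it, since its only probe set was above every floor used. At 4-fold or more, 2.99% of all genes were higher in hepatospheres, and among the galectin genes these were LGALS1 and LGALS4.

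LGALS2, which encodes a galectin of the gut epithelium, went the other way. It read 136 in the differentiated and 13.6 in the hepatosphere culture on 208450_at. The first value was above the floor and the second well below it, so the bound is at least 1.62-fold lower (-0.69). The deposited signals themselves differ by -3.32, and a floor lowered to the 40th percentile gave a bound of -1.46. At a floor raised to the 60th percentile LGALS2 was below it on both arrays and had no value. Its size is therefore set by how weak signals are handled. The sign was negative under all 10 settings that gave a value. A gene above the floor only in differentiated cells can only read lower, so that sign is no check.

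LGALS3, the chimera galectin found in nucleus, cytosol and matrix and recruited to damaged lysosomes, read 8345 in the differentiated and 6194 in the hepatosphere culture on its brightest probe set, 208949_s_at. That is 1.35-fold lower, a difference of -0.43. The other probe set, 1557197_a_at, read 51.4 in differentiated cells, below the floor, and 119 in hepatospheres, a bound of at least 1.42-fold higher. The pair thus pointed in opposite directions, and their mean was 0.04. LGALS3 was 2-fold lower only with poly(A) scaling, at -1.46.

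Of the tandem-repeat galectins, LGALS4 differed most. Galectin 4 stabilises glycolipid rafts and apical transport in gut epithelium. Its probe set 204272_at read 147 in the differentiated and 1246 in the hepatosphere culture, 8.49-fold higher (3.09), and it ranked 64th from the top in the same order as LGALS1. The differentiated signal lay close to the floor. With log2 of signal plus floor the difference was 2.53, and over all settings it ranged from 2.06 to 3.10.

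LGALS8, whose product marks ruptured vesicles for autophagy by binding CALCOCO2 (NDP52), had 6 probe sets that spread around zero. The brightest, 208933_s_at, read 1055 in the differentiated and 1299 in the hepatosphere culture, 1.23-fold higher. 208934_s_at read 885.6 and 949.2 in the same order, a difference of 0.10. 208935_s_at read 362 and 304, and 208936_x_at read 559 and 422, which puts both lower in hepatospheres, at -0.25 and -0.41. The probe set furthest below 0 was 210732_s_at, with 326.5 in differentiated cells and 196 in hepatospheres (-0.74). The one furthest above was 210731_s_at, with 61.6, below the floor, and 149.6, a bound of 0.83. In all, 3 were higher and 3 lower, and their mean was -0.03. Each of the 6 has a name ending in _s_at or _x_at, which marks sequence shared between transcripts, so which transcript forms they report was not resolved. LGALS8-AS1, transcribed next to LGALS8, read 220 in the differentiated and 188 in the hepatosphere culture, a difference of -0.23.

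LGALS9, an interferon-inducible galectin known as a ligand of the T cell surface protein HAVCR2 (TIM-3), read 24.4 in the differentiated and 18.5 in the hepatosphere culture. Both signals lay below the floor, so it has no fold. HAVCR2 itself read 64.3 and 47.5, also below the floor on both arrays.

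LGALS3BP (also called 90K or Mac-2-binding protein), a scavenger-receptor family glycoprotein that liver cancer cells secrete, read 5742 in the differentiated and 14360 in the hepatosphere culture on 200923_at. This is 2.50-fold higher, a difference of 1.32. LGALS3, which names its best-known partner, was slightly lower on its bright probe set over the same arrays. The LGALS3BP difference kept to at least 2-fold under every setting that did not rescale to the poly(A) controls, with which it stood at 0.29. With its only probe set far above the floor, floor height and probe set choice could not move it.

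**Figure D1:**
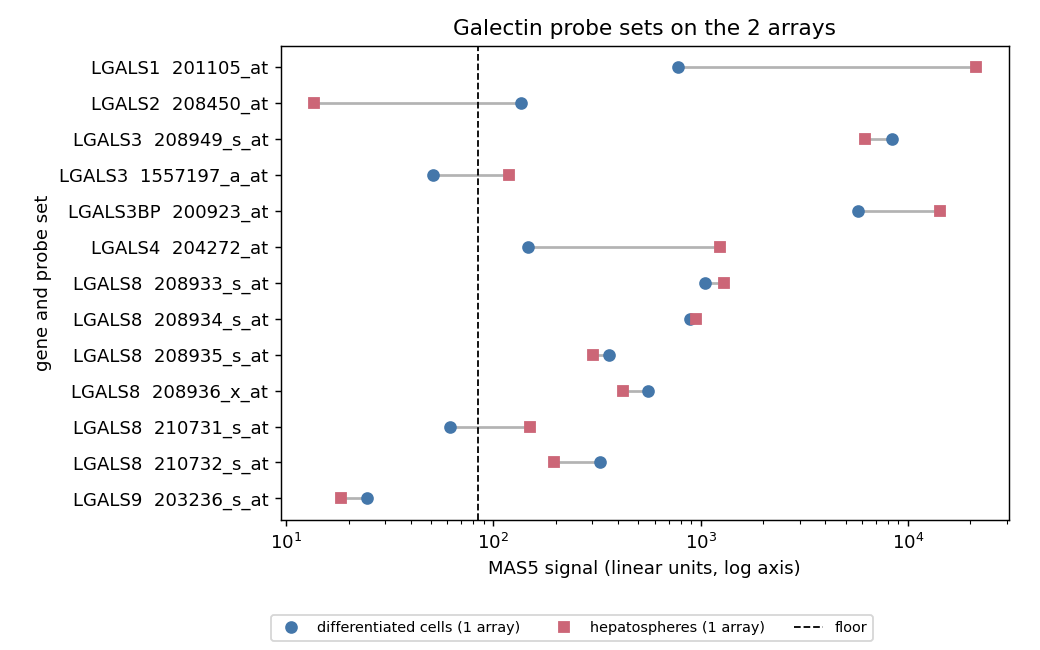
MAS5 signal (log axis) of the 13 galectin probe sets in differentiated cells (circles) and hepatospheres (squares), 1 array each, with the floor of 84.1 as a dashed line. LGALS1, LGALS4 and LGALS3BP lie to the right in hepatospheres, LGALS2 crosses below the floor, and the LGALS8 probe sets go both ways.

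Counted by probe set, 12 of the 13 reached the floor, 3 were at least 2-fold higher, 0 were measured or bounded at 2-fold lower, and 6 were within 2-fold on both arrays. The other 3, for LGALS2, LGALS3 and LGALS8, have only a bound under 2-fold and may lie further apart. Over the 23825 named probe sets that reached the floor, 11.6% were 2-fold higher and 9.59% lower. The 3 higher ones are each the only probe set of their gene, so no second probe set checks LGALS1, LGALS4 or LGALS3BP.

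**Figure D2:**
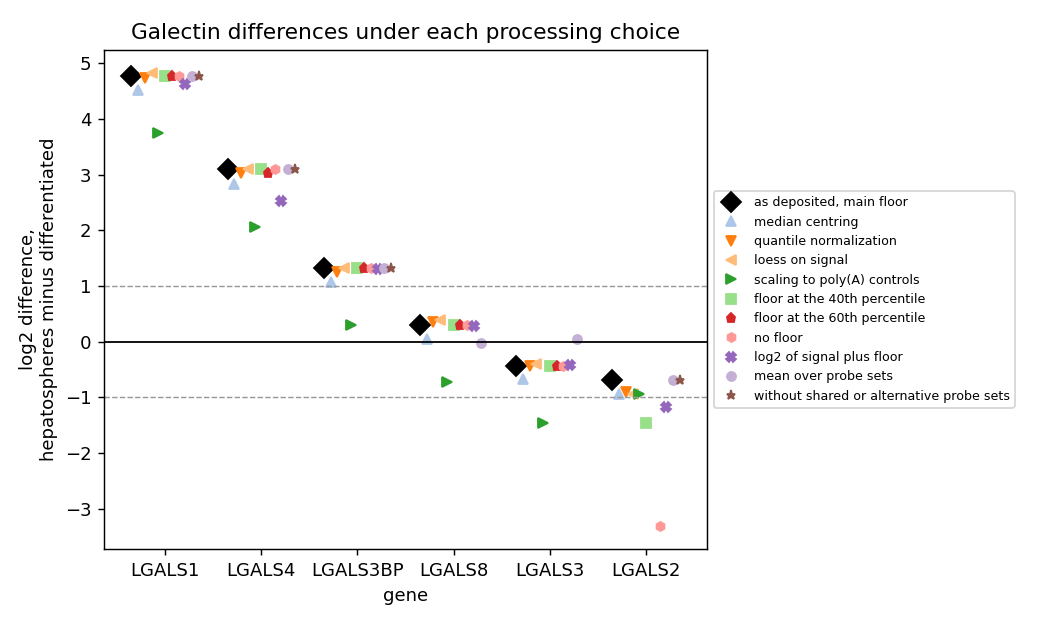
Log2 difference (hepatospheres minus differentiated cells) of the 6 galectin genes that reached the floor, under the main setting (black diamonds) and 10 alternatives, with dashed lines at 2-fold. LGALS1 and LGALS4 stay above 2-fold throughout, LGALS3BP drops to 0.29 with poly(A) scaling, and LGALS2 spans -3.32 to -0.69.

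Among other family members, 5 of 11 listed genes had a probe set of their own, and LGALSL alone reached the floor. LGALSL encodes a galectin-related protein that lacks sugar binding. Its probe sets read 1149 and 771.3 in differentiated cells and 1788 and 1283 in hepatospheres, 1.56-fold and 1.66-fold higher, and the brighter stood at -0.39 with poly(A) scaling. CLC, LGALS12, LGALS13 and LGALS14, which belong mainly to blood cells, fat and placenta, were below the floor on both arrays.

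The genes nearest to LGALS1 in size of difference, over 2 arrays and among 8864 other genes above the floor whose probe sets all went the same way, were ABCA8 (4.58), CEACAM1 (4.97) and TNFSF15 (5.06). With 2 arrays such likeness rests on a single difference.

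In gene order, the 3 array genes on each side of 6 members were compared with them, and LGALS9, below the floor, was left out. Of these 36 places 30 held a gene that reached the floor. In 5 it was at least 2-fold higher and in 5 lower, beside 12.5% and 8.83% of all genes. A further 18 were within 2-fold, and 2 had only a bound under 2-fold. LGALS1 and LGALS2 lie close together on chromosome 22, with GGA1, SH3BP1 and PDXP-DT between them on the array, and these 3 genes stand among the neighbours of both. GGA1, a Golgi sorting adaptor, stood at 0.61, whereas LGALS1 stood at 4.77 on one side of it and LGALS2 at -0.69 on the other. NOL12, on the far side of LGALS1, read 1067 in the differentiated and 408.8 in the hepatosphere culture, 2.61-fold lower, or -0.51 with the mean over probe sets. GCAT, on the same side, was 2.09-fold higher (0.89 with the mean over probe sets). On the far side of LGALS2, CDC42EP1 was 3.42-fold lower and MFNG 2.17-fold higher.

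LGALS4 on chromosome 19 had higher genes on both flanks. CAPN12, a calpain protease gene, read 175 in the differentiated and 679 in the hepatosphere culture, 3.88-fold higher. ECH1, a peroxisomal and mitochondrial enzyme of fatty acid oxidation, read 4405 and 14133 in the same order, 3.21-fold higher. Beyond them ACTN4 stood at -0.28 and HNRNPL at 0.04. Around LGALS3BP on chromosome 17 0 of 6 neighbours were called 2-fold apart, with values or bounds between -0.47 and 0.19. C1QTNF1 and C1QTNF1-AS1 are the bounds. Around LGALS3 on chromosome 14, WDHD1, MAPK1IP1L and DLGAP5 were 2.22-fold, 2.30-fold and 2.59-fold lower, WDHD1 standing at -0.13 without shared-sequence probe sets.

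**Figure D3:**
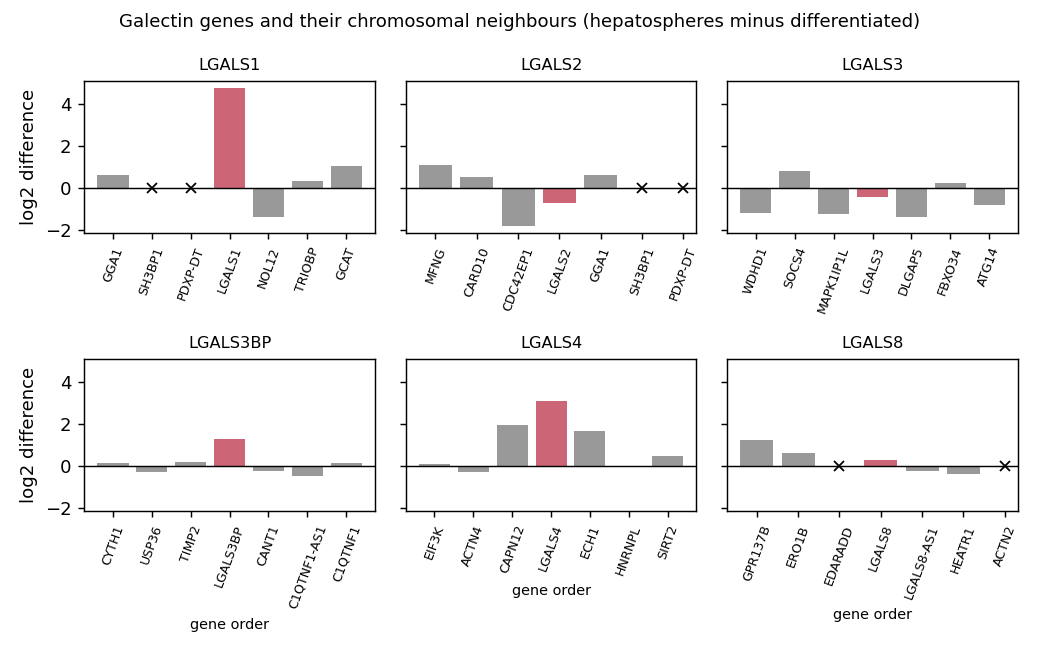
Log2 difference (hepatospheres minus differentiated cells) of each galectin gene (coloured bar) and the 3 array genes on either side in RefSeq order (grey bars), with crosses for genes below the floor on both arrays. LGALS1 stands at 4.77 between GGA1 at 0.61 and GCAT at 1.07, with NOL12 at -1.38, while LGALS4 at 3.09 is flanked by CAPN12 and ECH1.

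Partner genes were read from 10 further lists, also written with earlier results known, against the background of 12.5% higher and 8.83% lower. Of 25 galectin-binding glycoproteins that reached the floor, 9 were higher by 2-fold or more and 2 were lower. Another 10 lay within 2-fold and 4 had only a bound under 2-fold, with a median of 0.57 (-0.41 with poly(A) scaling). CEACAM1, an adhesion molecule, read 144 in the differentiated and 4513 in the hepatosphere culture. It was 31.3-fold higher, or 3.83 on the log2 scale with the mean over its probe sets. The matrix protein genes FN1 and LAMB1 were 4.19-fold and 3.99-fold higher, and the fibronectin receptor subunit ITGA5 2.36-fold. FN1 stood at 1.40 on the log2 scale when shared-sequence probe sets were left out. CD47 was 5.15-fold higher on its brightest probe set but stood at 0.40 without shared-sequence probe sets. The lysosomal glycoprotein LAMP2 was 2.22-fold higher while LAMP1 read 19086 and 19046. SLC2A2, the hepatocyte glucose transporter that galectin lattices hold at the surface of islet cells, was 7.24-fold lower, and the receptor NRP1 2.74-fold lower. The immune receptor PTPRC was below the floor on both arrays.

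Enzymes of 3 lists build or cap the sugars that galectins bind. Of 15 genes of N-glycan branching and extension 13 were within 2-fold, 2 higher and 0 lower, with a median of 0.13 (-0.13 with median centring and -0.90 with poly(A) scaling). The higher pair were SLC35A2, the transporter that supplies galactose to the Golgi, at 2.36-fold and the mannosidase MAN2A2 at 2.05-fold, and both were within 2-fold with median centring. The branching enzymes MGAT2 and MGAT4A stood at -0.82 and -0.89. With median centring these stood at -1.08 and -1.15, so that the list then had 0 higher and 2 lower. Of all genes, 9.09% were higher and 14.6% lower with that centring. Sialic acid caps can block galectin binding, and of 10 capping genes 2 were higher and 1 lower (median 0.42, and -0.58 with poly(A) scaling). ST3GAL1, which caps O-glycans, read 68.8 in differentiated cells, below the floor, and 780 in hepatospheres, at least 9.27-fold higher (3.21). The mean over its probe sets was 2.17, and the higher floor of the 60th percentile gave 2.35. ST3GAL5, which makes the ganglioside GM3, was 5.34-fold higher and ST3GAL4 3.18-fold lower, although ST3GAL4 stood at -0.99 with the mean over its probe sets. ST6GAL1, whose alpha-2,6 caps block galectin 1, was 1.86-fold lower. Of 8 genes of O-glycan core synthesis 7 were within 2-fold and GALNT12 was 4.27-fold higher (median 0.24, -0.01 with quantile normalization, -0.09 with median centring and -0.50 with poly(A) scaling).

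Inside the cell, galectins 3 and 8 meet the autophagy machinery at damaged vesicles. Of 11 such partner genes 3 were higher, 0 lower and 8 within 2-fold (median 0.33, and -0.70 with poly(A) scaling). PRKAA2, a catalytic subunit of AMPK, was 2.82-fold higher, or 0.87 on the log2 scale with the mean over probe sets. MAP1LC3B, the autophagosome protein LC3B, was 2.70-fold higher, and TFEB, the lysosomal transcription factor, 2.09-fold. TFEB was within 2-fold under 6 of 10 alternatives, between 0.03 with poly(A) scaling and 0.93 with loess. The autophagy receptor SQSTM1 stood at -0.70 and, without shared-sequence probe sets, at 0.62. Of 5 cytosolic and nuclear partners 2 were lower and 0 higher (median -0.14, but 0.16 with the mean over probe sets and 0.13 without shared-sequence ones). HRAS, which galectin 1 anchors at the membrane, read 3757 in the differentiated and 651.7 in the hepatosphere culture, 5.77-fold lower. GEMIN4, a splicing-complex partner of galectins, was 2.03-fold lower, and within 2-fold with loess (-0.99) or log2 of signal plus floor (-0.87).

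**Figure D4:**
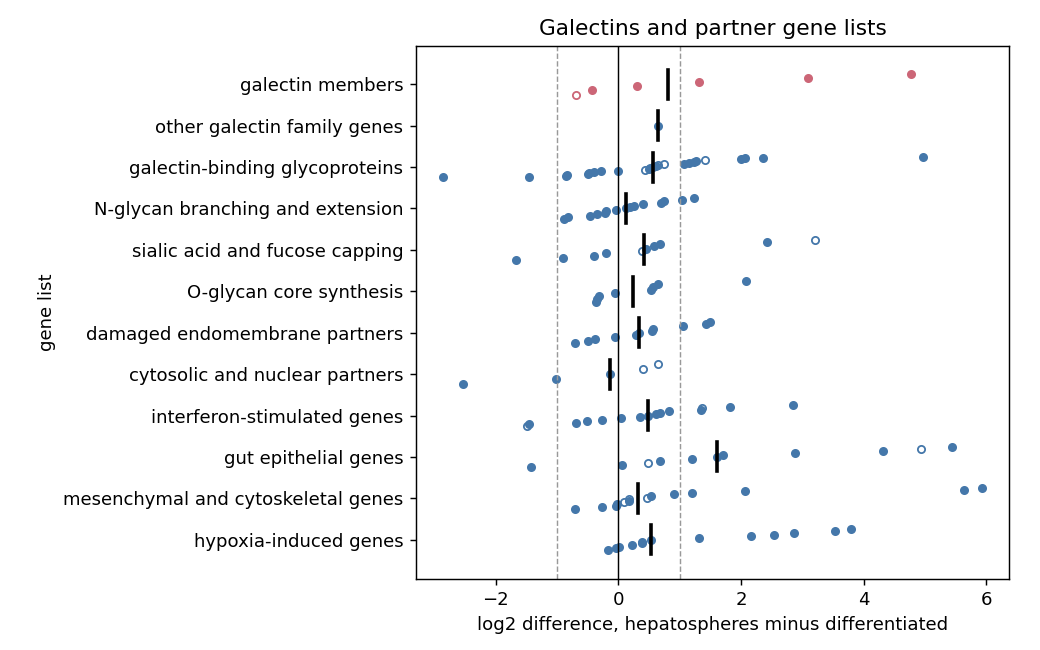
Log2 difference (hepatospheres minus differentiated cells) of each gene that reached the floor, by list, with open circles for genes below the floor on 1 array, black bars for medians and dashed lines at 2-fold. The galectins spread from -0.69 to 4.77, and the gut epithelial list has the median furthest from 0, at 1.61.

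The remaining lists hold genes known to be expressed alongside particular galectins. LGALS4 and LGALS2 are gut genes, and of 11 gut epithelial genes 7 were higher, 1 lower, 2 within 2-fold and 1 bounded under 2-fold, with a median of 1.61 (0.57 with poly(A) scaling). KRT20, the intestinal keratin, was 43.8-fold higher, TFF3 at least 30.8-fold, FABP1 19.9-fold (2.88 in log2 once shared-sequence probe sets are left out) and TFF1 7.42-fold. FABP1 and the list member A1CF are also expressed by hepatocytes, so the list is not particular to gut. Of the 16 listed genes with a probe set, the other 5 were below the floor on both arrays. These were CDX2, the intestinal master regulator, CDX1, FABP2, PHGR1 and GPA33. The 1 lower gene was HNF4G, at -1.42, and the 2 within 2-fold were A1CF (0.06) and TSPAN8 (0.68). LGALS4 was higher, as were KRT20, TFF3, FABP1 and TFF1, the list's largest differences, and LGALS2 was not. Any link of these genes to the LGALS4 difference was not tested. LGALS3BP and LGALS9 are interferon-inducible, and of 15 interferon-stimulated genes 4 were higher, 2 lower and 9 within 2-fold (median 0.48, and -0.48 with poly(A) scaling). IFITM1 was 7.22-fold and ISG15 3.56-fold higher, BST2 was 2.74-fold lower and IFIT3 at least 2.80-fold lower. Under the 60th-percentile floor the IFIT3 bound was -0.63 on the log2 scale. MX1 and IFI44, both strongly interferon-dependent, were below the floor.

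LGALS1 is a common member of mesenchymal signatures. Of 14 mesenchymal and cytoskeletal genes 4 were higher, 0 lower, 7 within 2-fold and 3 bounded under 2-fold (median 0.33, and -0.50 with poly(A) scaling). The higher ones were S100A4 at 60.8-fold, TIMP1 at 49.8-fold, FN1, which is also in the glycoprotein list, and the transcription factor ZEB1 at 2.29-fold. S100A4 had no value once shared-sequence probe sets were left out. On the log2 scale ZEB1 stood at 0.95 with median centring, 0.89 with the mean over probe sets and 0.17 with poly(A) scaling. VIM, the mesenchymal filament vimentin, read 64.3, below the floor, in differentiated cells and 117 in hepatospheres. CDH2, SNAI2 and TWIST1, an adhesion molecule and transcription factors of mesenchymal transition, were below the floor on both arrays. Of those measured on both, ANXA1 stood at 0.53 and LMNA at -0.70. Of 13 hypoxia-induced genes, a class to which LGALS1 and LGALS3 are often assigned, 6 were higher, 0 lower and 7 within 2-fold (median 0.54, and -0.49 with poly(A) scaling). P4HA2 was 13.8-fold (2.63 with the mean over probe sets), ANKRD37 11.5-fold, P4HA1 7.33-fold and NDRG1 5.81-fold higher. The glycolytic genes LDHA, SLC2A1 and PGK1 stood at -0.17, -0.04 and 0.23, and the oxygen sensor EGLN3 at 0.01.

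Fibroblasts and immune cells also make galectins, and their markers were read beside these results. The labels name a carcinoma line and no other cell type, so a marker signal is not a count of such cells. In RNA from whole cultures, cell number and RNA per cell cannot be told apart. Of 6 fibroblast markers LUM and COL3A1 were at least 31.8-fold and at least 8.07-fold higher in hepatospheres, COL1A1 was within 2-fold, DCN was at least 1.65-fold higher, and COL1A2 and PDGFRB were below the floor on both arrays. The summed signal of the 6 was 426.9 in differentiated cells and 4067 in hepatospheres, where LUM alone read 2677. Any link of these genes to the LGALS1 difference was not tested. All 5 T cell markers and 3 of the 4 macrophage markers with a probe set were below the floor on both arrays, and CSF1R read 97.7 in hepatospheres. Of 5 endothelial markers 4 were below it, with PECAM1 at 3388 and 3787.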

How the data were processed

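Total RNA of 2 PLC/PRF/5 cultures, 1 per group, was read on Affymetrix U133 arrays, and groups follow the source names in the labels. The authors deposited linear intensity values, a MAS5 signal for each probe set. The method comes from the submitters' processing notes. Its version and its scaling target were not given in the sources used here. MAS5 subtracts background and scales each array globally, so weak signals are noisy. Precision is limited by the number of arrays.

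Of 54675 probe sets, 62 were controls, 41091 paired with 1 symbol in GEO's array annotation, 1801 with several and 11721 were unnamed here. For each of 19775 genes the probe set brightest in mean log2 signal was used. The floor was the higher of the 2 arrays' 50th percentiles, and genes under it on both arrays were left out. Members and lists were chosen with earlier results of these data known. Named genes are all members and their probe sets, other named family genes, up to 4 genes per list with the largest differences, 3 array genes on each side of a member and the 3 genes nearest LGALS1 in difference. ITGA5, LAMB1, LAMP1, LAMP2, NRP1, HAVCR2, PTPRC, CDX1, CDX2, FABP2, PHGR1, GPA33, HNF4G, A1CF, TSPAN8, MX1, IFI44, VIM, CDH2, SNAI2, TWIST1, ANXA1, LMNA, LDHA, SLC2A1, PGK1 and EGLN3 were named after their values were seen. Gene order and the 250 upstream bases came from RefSeq tables of GRCh38.p14, and 6 of 7 members had an upstream window. The fold procedure was tested on simulated data, with differences added only to genes well above the floor. That test did not cover weak signals or poly(A) scaling. Alternatives were median centring, quantile normalization, loess (span 0.3), poly(A) scaling, the 40th or the 60th percentile as floor, the floor removed, log2 of signal plus floor, averaging probe sets, and leaving out probe sets ending in _s_at, _x_at or _a_at. Tools were matplotlib 3.10.9, statsmodels 0.14.6, scipy 1.17.1, pandas 2.3.3 and numpy 2.4.6 under Python 3.11.15.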

Additional observations from a re-analysis of the deposited data

How the results depend on the processing

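With no replicates, a difference was compared between settings by its sign and its side of 2-fold. LGALS1 and LGALS4 kept both under all 10 alternatives. Several of these could not move them, as each has 1 probe set, unshared and above the floor on both arrays. Lowering or removing the floor, averaging probe sets and leaving out shared ones returned the same values. The count of galectin genes known to be at least 2-fold lower was 0 and became 1 with poly(A) scaling (LGALS3), and 1 under a floor at the 40th percentile, no floor or log2 of signal plus floor (LGALS2, at -1.46, -3.32 and -1.17). The median over the galectin genes was 0.81 and became -0.22 with poly(A) scaling, where the median of all genes was -0.93. It was 1.32 with the floor at the 60th percentile, where LGALS2 drops out, and 2.20 without shared or alternative probe sets, which leaves LGALS1, LGALS2, LGALS3BP and LGALS4. LGALS8 stood at -0.73 with poly(A) scaling. Over all genes, 58.7% of those 2-fold apart were higher in hepatospheres as deposited (1601 higher, 1127 lower), 38.3% with median centring (1181 and 1902) and 6.47% with poly(A) scaling (399 and 5764). Without a floor 4232 were higher and 2431 lower. Counts in the partner lists moved by more than 1.5 times mainly with poly(A) scaling. It left 3 glycoproteins higher instead of 9 and 9 lower instead of 2, and 4 gut genes higher instead of 7. Interferon-stimulated genes then had 1 higher instead of 4 and 5 lower instead of 2, and endomembrane partners 0 higher instead of 3 and 4 lower instead of 0. It put 7 N-glycan genes, 4 O-glycan genes, 4 mesenchymal genes and 3 hypoxia genes lower, each instead of 0, and 4 capping genes instead of 1. It also left 0 N-glycan genes higher instead of 2. With poly(A) scaling 46.5% of all genes that reached the floor were at least 2-fold lower and 3.22% higher. The list counts are to be read against those shares. Without shared or alternative probe sets, which also leaves fewer genes, 5 glycoproteins, 3 hypoxia genes and 2 interferon-stimulated genes were higher instead of 9, 6 and 4. Of the 9846 genes then left, 12.7% were higher. How many genes each list kept is not given here, so lost genes and lost calls cannot be told apart. Without a floor 9 mesenchymal genes were higher instead of 4, while 21.4% of all genes were higher instead of 12.5%. Counts that moved by 1 or 2 genes under other settings are not listed. No paired analysis was possible because each group has 1 array. Weak signals limit LGALS2, LGALS9 and the second LGALS3 probe set.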
